A study of Mus musculus with 3 samples.

Results

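The Y negative derivative of the mouse bladder cancer line MB49 was compared with the parental line over the short insertions and deletions (indels) that exome sequencing listed on autosomes 1 to 19. An indel was taken where the Y negative and parental lists both held it with 1 alternative allele at a depth of at least 20 reads, or where 1 of these lists held it at that depth and the other did not hold it at all. Entries were matched on chromosome, start, reference and alternative allele. This gave 4614 indels of 23347 in the series: 2611 shared, 1029 listed in Y negative only and 974 listed in parental only.

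MB49 is an established line of bladder cancer cells, kept in culture without any named treatment. The study concerned loss of the Y chromosome in bladder cancer, and its exome part held the parental line, a derivative with the genotype label Y NEGATIVE and a derivative with the label Y positive, which was used here only as a further reading of the same indels. Each genotype had 1 library of genomic DNA, and no label says how each derivative was made, whether it is a single clone or whether its culture was separate. Every test below therefore compared the reads of 2 libraries, not the genotypes.

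An indel adds or removes bases. Runs of 1 repeated base and short repeats gain or lose units most easily, both when cells copy their DNA and when a library is amplified and read. In a coding exon an indel whose length is not a multiple of the codon length shifts the reading frame. The allele fraction, the reads with the indel over all reads counted at its position, follows the share of chromosome copies that carry it. In a cancer cell line it can move when copies are lost or gained or when a subclone takes over. Whether any autosomal difference went with loss of the Y chromosome was not tested.

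The alleles below are those of the 8 shared autosomal indels whose allele fraction differed between the Y negative and parental libraries. The lower-case letter is the base before the change and the capitals are the deleted or inserted bases. Positions are in the files' coordinates, which are those of mm9, and the genes are named by the Ensembl transcript in the files.
chr1:62285271, deletion, intron of ENSMUST00000046451: tA
chr16:29277829, insertion, intron of ENSMUST00000075806: gA
chr1:87345084-87345099, deletion, intergenic: cTCTCTCTCTCTGTGTG
chr3:88442303-88442310, deletion, intron of ENSMUST00000029694: tTTTTTTTA
chr11:62887027, deletion, intron of ENSMUST00000035732: tG
chr5:97137579, deletion, intron of ENSMUST00000036019: gT
chr13:40383412, insertion, upstream of ENSMUST00000054635: gA
chr4:146886442, deletion, intron of ENSMUST00000063704: cT
Of these 8 alleles, 5 were single A or T bases, beside 48.3% of the 2611 shared indels. A single G and the longer 2, a run of T with a closing A and a TC and TG repeat, made up the rest. None lay in a coding exon, beside 4.83% of the shared indels.

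The autosomal lists held 11438 parental and 12172 Y negative entries, of which 4009 and 3968 reached 20 reads. Besides the shared and one-list indels, 149 parental and 156 Y negative entries at that depth were listed in the other library with 2 alternative alleles, and 275 and 172 were listed there below 20 reads. Median depth at shared indels was 52 reads in parental and 49 in Y negative, and at one-list indels 36 and 38. The depths of the shared indels summed to 211525 parental and 211289 Y negative reads, with single sites of up to 5447 and 5817 reads.

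Allele fractions of the shared indels were close in the 2 libraries. Over the 2611 indels the median difference, Y negative minus parental, was 0, with quartiles of -0.028 and 0.036, and 985 indels were higher in Y negative, 911 lower and 715 equal. Across indels, which share their libraries and are not independent replicates, Pearson's r was 0.953. This includes the 899 indels homozygous in both libraries. Over the 1637 heterozygous in both, r was 0.807, and 505 of them (30.8%) differed by 0.1 or more. A Fisher exact test of reference and alternative reads, adjusted by Benjamini-Hochberg, passed at 8 of 2611 autosomal indels (0.306%), 6 of them higher in Y negative (0.23%) and 2 lower (0.0766%). Without adjustment 143 indels had a p under 0.05, 85 higher and 58 lower. The fraction moved by 0.2 or more at 127 indels (4.86%), 76 higher and 51 lower.

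**Figure D1:**
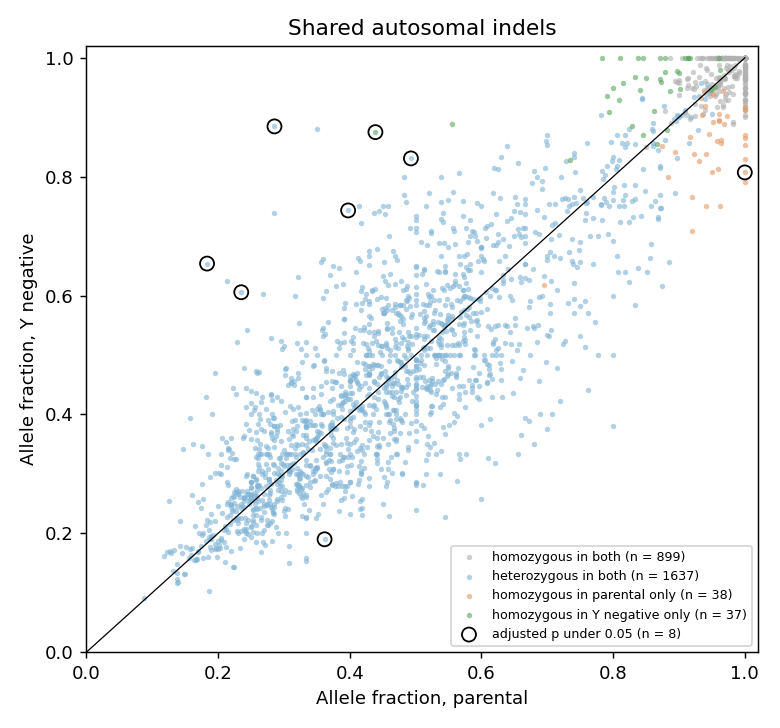
Allele fraction of each of the 2611 shared autosomal indels in the parental library (x axis) and the Y negative library (y axis), coloured by deposited genotype; open circles mark the 8 indels past the Fisher exact test and the line marks equal fractions. Points lie along the line (r = 0.953, and 0.807 for the 1637 indels heterozygous in both), 6 circles lie above it and 2 below.

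The intronic A deletion at chr1:62285271 in ENSMUST00000046451 had the largest difference. It was carried by 10 of 35 reads in parental (0.286, exact 95% interval 0.146 to 0.463), 19 of 32 in Y positive (0.594) and 23 of 26 in Y negative (0.885, 0.698 to 0.976). The Y negative fraction was 0.599 above the parental one (Fisher exact test on the reads of the 2 libraries, adjusted p = 0.0134). The Y positive value lay between, and its interval of 0.406 to 0.763 overlapped both of the others.

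The A insertion at chr16:29277829, intronic in ENSMUST00000075806, was seen on 33 of 83 reads in parental, on 22 of 51 in Y positive and on 55 of 74 in Y negative. The corresponding fractions were 0.398, 0.431 and 0.743, and the Y negative interval of 0.628 to 0.838 overlapped neither of the others (adjusted p = 0.0182 against parental, Fisher exact test). The G deletion at chr11:62887027 in ENSMUST00000035732 showed the same order of libraries. Parental had it on 12 of 51 reads, Y positive on 9 of 38 and Y negative on 43 of 71, so the fraction was 0.235, 0.237 and 0.606 (Fisher exact adjusted p = 0.0225 against parental). The T deletion at chr5:97137579 in ENSMUST00000036019 lay on 35 of 71 parental reads, on 31 of 60 in Y positive and on 54 of 65 in Y negative, a fraction of 0.493, 0.517 and 0.831 (Fisher exact adjusted p = 0.0225 against parental). At these 3 intronic sites the parental and Y positive fractions lay within 0.04 of each other and the Y negative fraction stood above both.

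At the longest 2 of the 8 alleles the Y positive fraction lay between those of the other libraries. The 16-base repeat deletion at chr1:87345084-87345099 was on 11 of 60 reads in parental, on 14 of 44 in Y positive and on 17 of 26 in Y negative (0.183, 0.318 and 0.654, adjusted p = 0.0225 for Y negative against parental, Fisher exact test). The 8-base deletion at chr3:88442303-88442310 in ENSMUST00000029694 was on 18 of 41 parental reads, on 36 of 51 in Y positive and on 35 of 40 in Y negative (0.439, 0.706 and 0.875, Fisher exact adjusted p = 0.0225), and its deposited genotype changed from heterozygous in parental to homozygous in Y negative. In both cases the Y positive interval overlapped the parental and the Y negative intervals.

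At 2 of the 8 indels the Y negative library was the low one. The A insertion at chr13:40383412, upstream of ENSMUST00000054635, was on 67 of 67 parental reads and 64 of 64 Y positive reads but on 67 of 83 Y negative reads (0.807, 0.706 to 0.886, adjusted p = 0.0225 against parental, Fisher exact test). The deposited genotype was accordingly homozygous in the first 2 libraries and heterozygous in Y negative. The T deletion at chr4:146886442 in ENSMUST00000063704, the deepest of the 8, was on 72 of 199 parental reads (0.362), 96 of 178 Y positive reads (0.539) and 38 of 200 Y negative reads (0.19). The intervals of these 3 fractions did not overlap, and the adjusted p for Y negative against parental was 0.0445.

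Of the 8 indels, those at chr1:87345084, chr3:88442303 and chr4:146886442 had another indel of the same library within 10 bases. They were left out when indels with such a neighbour were removed. Whether the neighbours changed their fractions was not tested. Against parental, 4 of the 8 calls were lost under another setting that still tested them, with the direction kept. With the record's own depth field in place of reference plus alternative reads, the Fisher exact adjusted p was 0.0712 at chr11:62887027, 0.0914 at chr5:97137579 and 0.293 at chr13:40383412, and at a minimum of 10 reads it was 0.0608 at chr4:146886442.

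The Y negative reads of these sites also entered the comparison with Y positive, so that comparison is not a separate reading of Y negative. In it the Fisher exact test gave adjusted p = 1.63e-09 at chr4:146886442, 0.0111 at chr13:40383412, 0.0325 at chr5:97137579 and 0.0349 at chr11:62887027. It did not pass at chr16:29277829 (0.0696), chr1:87345084 (0.401), chr1:62285271 (0.536) or chr3:88442303 (0.943). The same test passed at 20 of 2603 shared autosomal indels between Y negative and Y positive (0.768%) and at 23 of 2700 between Y positive and parental (0.852%).

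**Figure D2:**
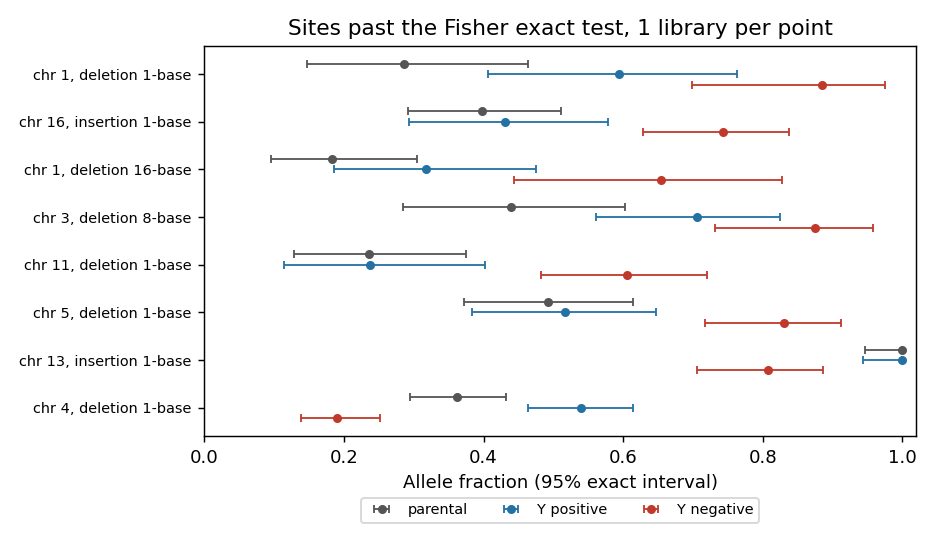
Allele fraction (x axis, with exact 95% intervals) of the 8 indels past the Fisher exact test, 1 row per indel, in the parental, Y positive and Y negative libraries. The Y negative point is the highest in the upper 6 rows and the lowest in the lower 2, and parental and Y positive nearly coincide in the rows of chromosomes 16, 11, 5 and 13.

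Among the 10 largest differences, 5 did not pass the test, all at depths of 42 reads or fewer in both libraries. The largest of these was a C deletion at chr17:50308558 in ENSMUST00000156094, found on 7 of 20 reads in parental, on 13 of 30 in Y positive and on 22 of 25 in Y negative (0.35, 0.433 and 0.88, adjusted p = 0.0755, Fisher exact test). Of the 5, 3 were higher in Y negative and 2 were lower: an A deletion at chr14:75507332 in ENSMUST00000022574, on 20 of 25 parental and 8 of 21 Y negative reads, and an A deletion at chr9:44058569 in ENSMUST00000034618, on 21 of 35 and 9 of 35 reads. The other 2 higher ones were an A deletion at chr13:51543156 in ENSMUST00000021898, on 6 of 21 parental and 17 of 23 Y negative reads, and a C insertion at chr14:57004782 in ENSMUST00000007340, on 9 of 42 and 20 of 32. Y positive had 8 of 24 and 23 of 49 reads at these 2. The spread of the difference at indels heterozygous in both libraries narrowed with depth, from an SD of 0.14 at 20 to 29 reads (393 indels) to 0.0619 at 100 reads or more (269 indels). No heterozygous indel with at least 100 reads in both libraries differed by 0.2 or more.

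Indels of 2 to 4 bases with a large difference were mostly higher in Y negative. Of 648 such shared indels, 14 were higher by 0.2 or more and 2 were lower, while single A or T indels gave 42 and 36 of 1261, single G or C indels 17 and 11 of 435, and indels of 5 or more bases 3 and 2 of 267. None of the 648 passed the adjusted Fisher exact test, and without adjustment 27 had a p under 0.05, 21 higher and 6 lower. For comparison, the median difference of the 374 heterozygous indels of 2 to 4 bases was 0.0045 beside 0.0048 for all 1637 heterozygous indels. The split was noticed in the data and was not tested against the other kinds. Between Y negative and Y positive the counts for 2 to 4 bases were 12 higher and 9 lower, and between Y positive and parental 9 and 13.

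Examples of these 16 were read at moderate depth. A TT deletion at chr9:21989985-21989986, downstream of ENSMUST00000088480, was on 35 of 80 reads in parental, on 33 of 53 in Y positive and on 48 of 65 in Y negative (0.438, 0.623 and 0.738, Fisher exact adjusted p = 0.0743). A CAA deletion at chr3:93631067-93631069, downstream of ENSMUST00000081780, was on 11 of 48 parental reads, 6 of 42 Y positive reads and 23 of 44 Y negative reads (0.229, 0.143 and 0.523, Fisher exact adjusted p = 0.413). A CA deletion at chr17:23612206-23612207 in ENSMUST00000171996 was on 10 of 51 parental and 23 of 49 Y negative reads and was not listed in Y positive (Fisher exact adjusted p = 0.413). All 3 deletions were taken from the 14 that were higher in Y negative by 0.2 or more, so their order against parental was set by that choice.

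Deposited genotypes mostly stayed as they were. Of the 2611 shared indels, 1637 were heterozygous in both libraries, 899 were homozygous in both, 37 were homozygous in Y negative only and 38 in parental only, so 75 differed (2.87%, exact 95% interval 2.27% to 3.59%). The median absolute difference in fraction at these 75 was 0.087, and 6 reached 0.2. Besides the 8-base deletion of chromosome 3, these were a G deletion at chr3:95991933 (15 of 27 parental, 24 of 27 Y negative reads), an A deletion at chr8:116236926 (18 of 23, 30 of 30), a C insertion at chr3:87189275 (20 of 20, 19 of 24), a T insertion at chr2:90533377 (26 of 27, 18 of 24) and a C deletion at chr11:40521008 (23 of 25, 17 of 24). At these other 5 the Fisher exact test did not pass, with adjusted p from 0.61 to 0.995.

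Coding exons held 126 of the shared indels, at median depths of 108 parental and 107 Y negative reads. Of these, 95 shifted the reading frame, with 25 homozygous and 67 heterozygous in both libraries, and 29 kept it, with 20 and 8. The files gave a gained stop codon for 1 of the remaining 2 and an unknown effect for the other. The frameshifts homozygous in both libraries at the greatest depth were an A deletion at chr2:85448971 in exon 1 of ENSMUST00000099921 (209 of 209 reads in parental, 223 of 223 in Y negative, 185 of 185 in Y positive) and an A deletion at chr9:105836538 in exon 6 of ENSMUST00000165165 (189 of 189, 202 of 202 and 164 of 164). A G insertion at chr7:107603881 in exon 31 of ENSMUST00000051777 was likewise on all of 199, 184 and 193 reads. Every read of these 3 frameshifts carried the indel in each library.

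No coding indel passed the adjusted Fisher exact test and none differed by 0.2. Without adjustment 12 of the 126 had a p under 0.05, 9 higher and 3 lower in Y negative, beside 143 of 2611 autosomal indels (5.48%), whose median depth was lower. The largest coding difference was an A deletion at chr9:38307158 in ENSMUST00000052901, which shifts the frame at I301fs and was on 23 of 49 reads in parental, 29 of 50 in Y positive and 28 of 42 in Y negative (0.469, 0.58 and 0.667). A TT deletion at chr1:163081099-163081100 in ENSMUST00000052245, Y26fs, was on 47 of 58 parental reads and on all 30 Y negative and 32 Y positive reads (Fisher exact adjusted p = 0.633 against parental). These intervals overlapped between parental and Y negative.

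An indel in 1 list only is a weaker observation than a shared one, since the other list gives no reads for it and absence is not a measured reference genotype. Of the 1029 Y negative only indels, 895 were heterozygous, 29 homozygous and 105 part of a record with 2 alternative alleles, and of the 974 parental only indels 847, 35 and 92. The Y positive list held 314 of the Y negative only indels (30.5%, exact 95% interval 27.7% to 33.4%) and 371 of the parental only indels (38.1%, 35.03% to 41.22%). The remaining 715 and 603 were in 1 of the 3 lists as written, before shifted starts were matched (below).

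Single A or T bases made up 52.6% of the Y negative only indels (541 of 1029) and 48.8% of the parental only ones (475 of 974), beside 48.3% of the shared indels (1261 of 2611). Indels of 2 to 4 bases were 33.0% and 37.3%, beside 24.8% of the shared indels. Deletions were 878 and 820 of the one-list indels (85.3% and 84.2%), beside 72.6% of the shared indels. Introns held 582 and 507 (56.6% and 52.1%), beside 48.4% of the shared indels. Non-coding RNA genes held 262 and 274 (25.5% and 28.1%), beside 28.5%. Coding exons held 28 and 23 (2.72% and 2.36%), beside 4.83%. Another indel lay within 10 bases in the other list at 200 Y negative only (19.4%) and 191 parental only indels (19.6%).

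Part of the one-list indels were the same change written at another start. In a record with 2 alternative alleles the files place the shorter deletion further to the right, by 1 to 3 bases in the homozygous cases below, and removing the end bases that such a pair of alleles shares matched 61 of the Y negative only and 63 of the parental only indels to the other list, a match chosen after the data were seen. Among homozygous one-list indels this was 14 of 29 and 20 of 35. A CACA deletion at chr13:38097875-38097878, downstream of ENSMUST00000074969, was homozygous in Y negative on 78 of 78 reads and in Y positive on 61 of 61. In parental the same CACA deletion was on 57 of 69 reads and the other 12 had lost CACACA. An AA deletion at chr2:90290886-90290887 in ENSMUST00000026352 was on 107 of 109 parental reads, while in Y negative 65 of 86 had lost AA and 21 had lost AAA. Here the lists differ in a further repeat length, not in the presence of the named deletion, and at all 34 such homozygous indels the other list had the deletion on a fraction of 0.292 or more.

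Heterozygous one-list indels had lower fractions than shared ones. Their median fraction in Y negative was 0.277 where Y positive did not list them (627 indels) and 0.333 where it did (268), beside 0.452 for heterozygous shared indels. In parental the medians were 0.286 (526), 0.348 (321) and 0.448. Listing in the other library went with both fraction and depth. Of Y negative heterozygous entries with a fraction above 0.2 and up to 0.25, 111 of 288 were listed in parental (38.5%), and of those above 0.5 and up to 0.6, 289 of 313 (92.3%). The same parental bins gave 129 of 274 (47.1%) and 310 of 372 (83.3%) listed in Y negative.

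**Figure D3:**
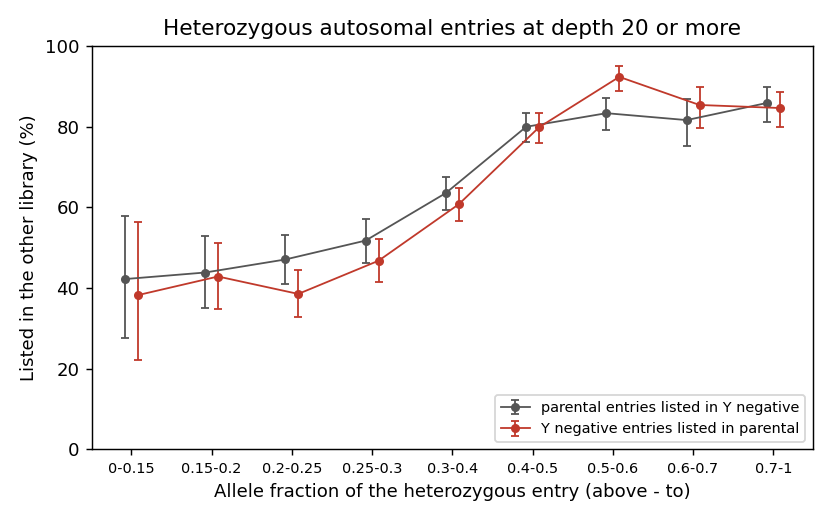
Share of heterozygous autosomal entries at depth 20 or more that the other library also listed (y axis, percent, with exact 95% intervals), by the entry's allele fraction (x axis, bins). Both lines rise from about 40% in the lowest bins to about 80% or more from a fraction of 0.4, and the intervals of the 2 libraries overlap in every bin except 0.5 to 0.6, where Y negative entries were listed in parental at 92.3% and parental entries in Y negative at 83.3%.

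By depth, parental heterozygous entries at 20 to 29 reads were listed in Y negative at 58.5% and those at 200 reads or more at 92.2%, and Y negative entries in parental at 59.9% and 83.5%. Around the depth minimum, entries of any genotype at 15 to 19 reads were missing from the other library for 36.2% of 679 Y negative and 42.8% of 726 parental entries, and those at 20 to 24 reads for 31.6% of 579 and 35.3% of 550. A mapping quality under 50 was recorded for 43 of the 1029 Y negative only indels (4.18%) and 19 of the 974 parental only indels (1.95%), beside 4.56% and 4.33% of shared indels in the same libraries.

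Coding exons held 28 Y negative only indels, of which 21 were labelled frameshift and 7 in frame, and 23 parental only indels, 15 and 8. These are the deposited effect labels, and the 15 include a 117-base deletion, described below, whose length is a multiple of the codon length. At a fraction of 0.25 or more there were 12 in Y negative, 7 of them also in Y positive, and 6 in parental, 4 of them also in Y positive. The most frequent in Y negative was a G deletion at chr11:6505641 in exon 1 of ENSMUST00000045713, P37fs, on 28 of 34 reads (0.824, exact 95% interval 0.655 to 0.932) and on 18 of 23 in Y positive (0.783). A C insertion at chr10:80641512 in exon 4 of ENSMUST00000047864, A163fs, was on 64 of 146 Y negative and 110 of 197 Y positive reads. Its mapping quality was under 50 in both libraries (48.76 and 48.41). A T insertion at chr1:90152741 in exon 35 of ENSMUST00000113130, V1367fs, was on 67 of 252 and 64 of 202 reads. These 3 were in both derivatives and not in the parental list, and so were 3 frameshift deletions at lower depth: AC at chr3:107734402 in ENSMUST00000133947 (12 of 24 Y negative, 10 of 22 Y positive reads), CA at chr10:62025866 in ENSMUST00000162759 (9 of 24, 8 of 39) and G at chr12:3236684 in ENSMUST00000049684 (7 of 25, 6 of 20).

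Listed in neither other library were 5 of the 12. A 6-base insertion at chr16:32752958 in exon 2 of ENSMUST00000096106 kept the frame and was on 47 of 68 Y negative reads (0.691, 0.567 to 0.798). The parental and Y positive lists held no indel within 300 bases of it. The mapping quality recorded for this insertion was 48.36, under 50. A G deletion at chr6:125118174 in exon 33 of ENSMUST00000112291, L1383fs, was on 29 of 92 reads (0.315), a T deletion at chr19:20863870 in exon 6 of ENSMUST00000025658, K274fs, on 24 of 95 (0.253), and an A deletion at chr10:20045953 in exon 6 of ENSMUST00000172309, K455fs, on 11 of 24 (0.458).

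The fifth lay where every library listed a frameshift, with the same allele in parental and Y positive. At chr7:51200694 in exon 2 of ENSMUST00000078897, Y negative had lost AA on 24 of 38 reads (0.632), while parental had lost a single A on 30 of 47 (0.638) and Y positive on 37 of 50 (0.74). Both alleles shift the frame at K45fs. At chr3:78696073-78696075 in ENSMUST00000164923, Y negative had an in-frame TTT deletion on 26 of 65 reads and a TTTT deletion on 32, Y positive had them on 21 and 32 of 55, and parental had the TTTT deletion on all of 58 reads. The TTT allele was thus seen in both derivatives beside the longer one, and in parental the list gave the longer one alone. The alleles of these 2 sites are shown together because they differ by a single repeated base. The lower-case letter is the base before the longest allele at the site. For the TTT deletion it is therefore the base before chr3:78696072, and the base directly before chr3:78696073 is a T.
chr7:51200694, Y negative: gAA
chr7:51200694, parental and Y positive: gA
chr3:78696073, Y negative and Y positive: cTTT
chr3:78696072, all 3 libraries: cTTTT

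The remaining parental only coding indels at this fraction were single-base frameshifts, apart from an in-frame TAG insertion at chr8:57984480 in ENSMUST00000167318 on 8 of 30 reads and a long insertion described below. The TAG insertion had a mapping quality of only 29.55 in parental. A G deletion at chr9:69298663 in ENSMUST00000071565, P64fs, was on 15 of 43 parental and 17 of 42 Y positive reads. An A deletion at chr16:33497429 in ENSMUST00000089675, L280fs, was on 15 of 46 and 15 of 64, and an A deletion at chr6:23360016 in ENSMUST00000115356, F739fs, was on 8 of 21 parental reads and in neither other list.

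**Figure D4:**
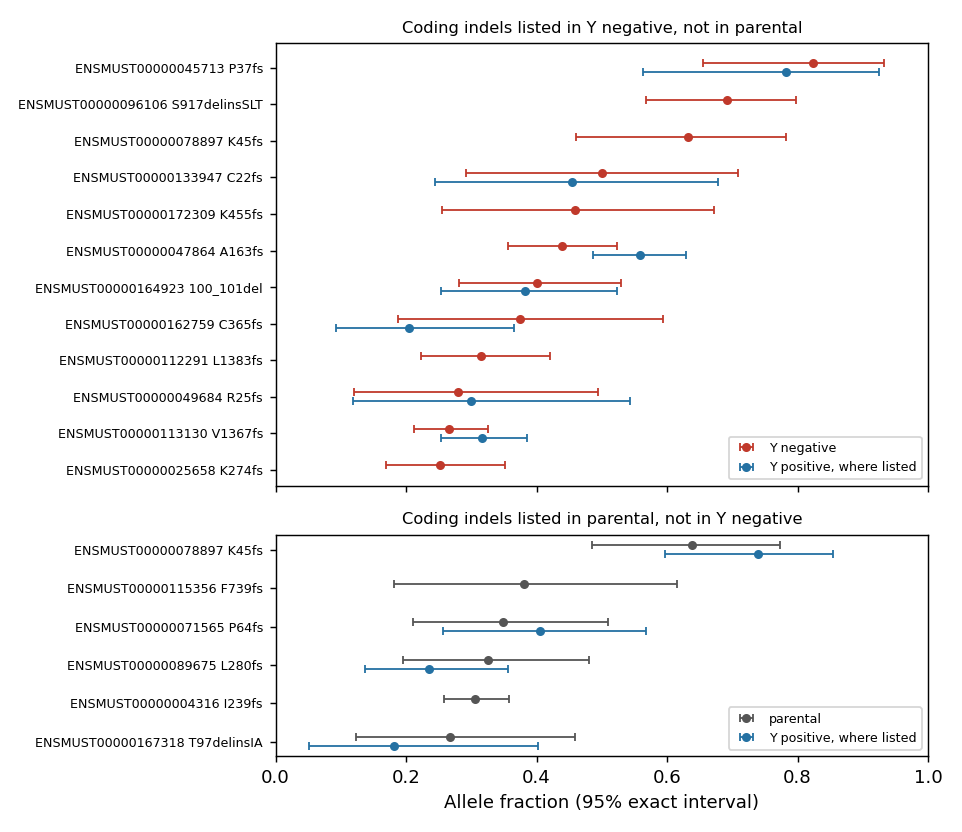
Allele fraction (x axis, with exact 95% intervals) of coding one-list indels at a fraction of 0.25 or more, 12 listed in Y negative (upper panel) and 6 in parental (lower panel), with the Y positive value where that list held the same indel. Rows give the transcript and the protein change in the files, and Y positive values are present in 7 of the upper rows and 4 of the lower rows.

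Some coding one-list indels at lower fractions came in pairs or triples on like numbers of reads. In ENSMUST00000085631, V49fs, Y negative listed a T insertion at chr9:58993871 on 70 of 425 reads and an A insertion at chr9:58993873 on 70 of 423, and Y positive listed them on 56 of 384 and 56 of 385. Parental listed neither, but a 6-base deletion at chr9:58993865 was on 71 of 455 reads in parental, 56 of 388 in Y positive and 70 of 441 in Y negative. In ENSMUST00000062451 a CC insertion and a TG deletion 5 bases apart on chromosome 7 were on 65 of 471 and 51 of 462 Y negative reads, with nothing listed within 300 bases in the other libraries. In parental, 3 frameshift deletions within 36 bases of ENSMUST00000036807 on chromosome 8 were on 26 of 150, 29 of 187 and 29 of 200 reads, and Y positive listed the same 3 on 32 of 144, 36 of 174 and 36 of 185. Such neighbours can lie on the same reads, so they are not separate observations.

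Some one-list alleles were long, up to 84 bases in Y negative and 122 in parental. A few of those described next, chosen after their values were seen, are shown by their first 24 bases, or whole with the preceding base where shorter, and the capitals in the 2 long deletions mark the GT after the opening AG.
chr1:74440474-74440590, parental, deletion of 117 bases: agGTgggccctgcctggcacctct
chr1:173286748-173286833, parental, deletion of 86 bases: agGTaggaaggccgcagagaaaca
chr10:59757856, parental, insertion of 91 bases: tgcaagaactacgtggaccagtat
chr2:69587155, Y negative, insertion of 18 bases: gAGTGAGTTAAATGAAATA
chr19:37646151, parental, insertion of 14 bases: gGATGGGTGGATGGT
chr19:37646166, parental, insertion of 22 bases: gGGTGGATGGATGATGGATGGAT
Both long deletions open with AGGT, on the strand the files give. Searched on that strand alone, this start was found in 2 of 102 autosomal deletions of 30 bases or more in any list, these 2, and in 5 of 3626 of 4 bases or more. The start was read off these same 2 deletions before it was counted, so the counts cannot show whether it is unusual. GT also opens most mammalian introns, and whether these deletions match introns was not tested.

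The 117-base deletion was annotated to exon 3 of ENSMUST00000027367, K107fs, on 44 of 200 parental reads (0.22, exact 95% interval 0.165 to 0.284). The 86-base deletion was annotated to exon 2 of ENSMUST00000006579, S49fs, on 41 of 366 (0.112). The deposited label of the 117-base deletion is a frameshift although its length is a multiple of the codon length. Whether that deletion reaches past the exon was not tested. Neither deletion was in the Y negative or Y positive list. Close to the 117-base deletion, a 15-base deletion at chr1:74440447 was on 27 of 101 parental and 24 of 94 Y negative reads. The 91-base insertion in exon 6 of ENSMUST00000004316, I239fs, was on 105 of 343 parental reads (0.306, 0.258 to 0.358) and was also absent from the other lists. In Y negative the 18-base insertion sat at a splice site of ENSMUST00000040915 on 51 of 156 reads, with a 43-base insertion 4 bases away on 39 of 144, and a further insertion of 52 bases in a coding exon of the same transcript at chr2:69581835 on 11 of 46. Parental and Y positive listed no indel within 300 bases of these 3 insertions.

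Other one-list indels with the most reads were outside coding exons. In Y negative a TAA insertion at chr1:90112314 in the non-coding transcript ENSMUST00000124852 was on 93 of 674 reads (0.138), and 1 base away parental and Y positive had an A deletion on 81 of 620 (0.131) and 88 of 637. An A deletion at chr7:117078321 in ENSMUST00000151923 was on 72 of 122 Y negative and 67 of 140 Y positive reads, and a T deletion at chr15:9670230 in ENSMUST00000041840, on 72 of 101 Y negative reads, matched a parental deletion on 85 of 100 once its start was moved. In parental a 9-base deletion at chr5:14978610-14978618 in ENSMUST00000096953 was on 157 of 1384 reads (0.113) and in no other list. Its mapping quality was 38.55. A T deletion at chr14:77651592 in ENSMUST00000022589, on 111 of 131 parental reads, matched a Y negative deletion on 68 of 112, where a further 27 reads had lost TT.

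Of the homozygous one-list indels, 15 in each library stayed unmatched after end bases were removed. For 6 of the Y negative and 10 of the parental indels, neither other list held an indel within 300 bases. The parental ones fell into 4 places. At chr5:130300579, intronic in ENSMUST00000031402, a T insertion was on 104 of 104 reads and a 106-base insertion at chr5:130300581 on 103 of 103. In ENSMUST00000066439, 4 insertions between chr19:37646142 and chr19:37646166 were on 72 of 73, 62 of 63, 36 of 36 and 35 of 35 reads, and upstream of ENSMUST00000098432, 3 insertions at chr8:109452365, chr8:109452369 and chr8:109452371 were on 29 of 29, 26 of 26 and 20 of 20. In Y negative they included an A deletion at chr9:121117393 in ENSMUST00000164336 on 64 of 64 reads, an A deletion at chr9:123569449 in ENSMUST00000040960 on 38 of 38, a 74-base insertion at chr10:115663421 on 32 of 32 and an 84-base insertion in the 3′ untranslated region of ENSMUST00000092351 at chr7:3415365 on 28 of 28. Whether the other libraries had reads at these positions was not measured.

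By chromosome, the median signed difference in allele fraction was small on each autosome. Such a median can stay near 0 where some indels rise and others fall, so it cannot show a change of that kind. Indels not heterozygous in both libraries were left out of it. Among indels heterozygous in both libraries the median difference ran from -0.019 on chromosome 2 (98 indels, quartiles -0.065 and 0.05) to 0.027 on chromosome 16 (62 indels, -0.05 and 0.101), and the quartiles of every autosome lay on both sides of 0. The depth ratio of Y negative to parental, as log2 after adding 0.5 reads, had a median of -0.03 over all 2611 shared indels. After centring on that value the chromosome medians ran from -0.07 on chromosome 17 to 0.06 on chromosome 12.

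Heterozygous indels near balance were mostly listed in the other library. Of 1431 parental heterozygous indels with a fraction of 0.35 to 0.75, Y negative listed 1124 (78.5%), and of 1361 such Y negative indels parental listed 1097 (80.6%). In windows of 10 Mb with at least 5 such indels (141 for parental, 125 for Y negative) the most that Y negative failed to list was 6 of 14, on chromosome 2 between 60000001 and 70000000, and the most that parental failed to list was 5 of 9, on chromosome 19 below 10000000. In the window with the lowest share, 33.3% were listed in the other library, for either direction.

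The share of one-list indels varied between autosomes. It was highest on chromosome 19 for parental (60 of 136, 44.1%, against 37.1% for Y negative) and on chromosome 12 for Y negative (38 of 100, 38%, against 42.7% for parental). Per shared indel, chromosome 12 had 0.962 parental only and 0.731 Y negative only indels. It was lowest on chromosome 18, with 11.7% and 15.1%, or 0.157 and 0.209 per shared indel. The mix of genotypes also differed between these autosomes, while one-list indels were mostly heterozygous. Of the shared indels, 42 of 115 were heterozygous in both libraries on chromosome 18, 47 of 52 on chromosome 12 and 65 of 70 on chromosome 19. The shares were not adjusted for this mix. On every autosome the 2 libraries' intervals overlapped.

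**Figure D5:**
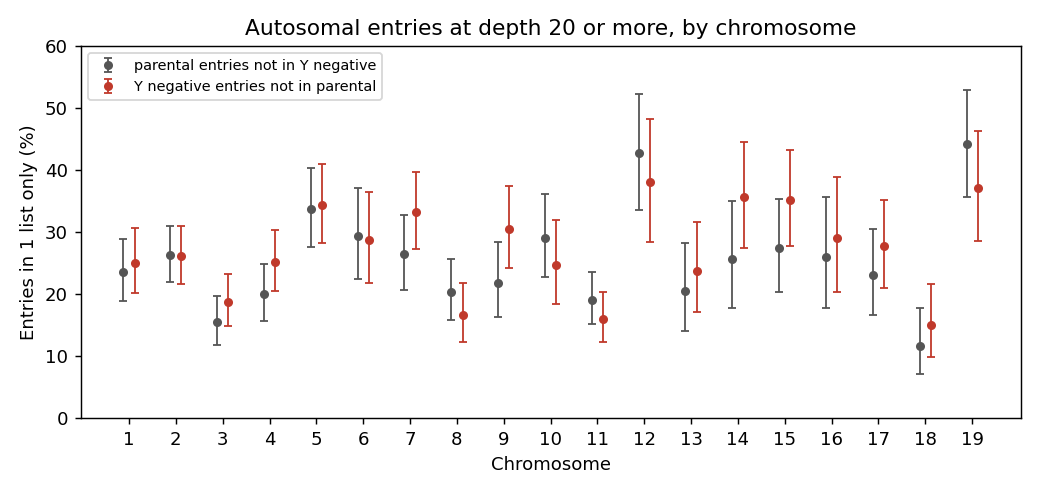
Share of autosomal entries at depth 20 or more that were in 1 list only (y axis, percent, with exact 95% intervals) for each chromosome (x axis), for parental entries not in Y negative and Y negative entries not in parental. Shares run from 11.7% on chromosome 18 to 44.1% on chromosome 19, and the intervals of the 2 libraries overlap on each autosome.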

How the data were processed

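Genomic DNA of 3 MB49 lines was sequenced after exome capture, 1 library a genotype. Per the submitters' processing notes, BWA and Picard were used, and the builds mm9 and mm10 are named. Positions run past the ends of mm10 chromosomes, so they are taken as mm9. The variant caller is not given in the sources used here. The deposited lists hold annotated indels with whole-number counts of reads per allele and depth, and a deposited quality score per entry, which was not used as a filter. The depth in the genotype field equals reference plus alternative reads in every entry.

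Allele fractions at a depth of at least 20 reads were compared by two-sided Fisher exact tests (scipy 1.17.1), with Benjamini-Hochberg adjustment over 2651 shared indels including chromosome X, of which 2611 are autosomal. The threshold was 0.05. The step was tested on simulated data. Intervals are exact (Clopper-Pearson, 95%). Reads carry no molecular identifiers, and both intervals and tests hold for counting error alone. Genotype labels set the groups. The sample descriptions MBN (Y positive) and MBP (Y negative) oppose them if their last letters mean negative and positive.

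The text names each indel past the test, the 10 largest differences, coding one-list indels at a fraction of 0.25 or more, the 5 one-list indels with most reads in each library, genotype changes with a difference of 0.2 or more, and the extreme chromosomes. Other indels were singled out after their values were seen. The indels and lists were chosen with earlier results of these data known. Alternatives were other depth minimums, leaving out single A or T indels or neighbours within 10 bases, another depth field, adjustment over autosomes alone, a fraction minimum and looser matching. No gene symbols were used, since the files give Ensembl transcripts.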

Additional observations from a re-analysis of the deposited data

How the results depend on the processing

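The count of 8 indels past the adjusted Fisher exact test became 7 at a depth minimum of 10 reads, 10 at 50 reads, 9 with the record's own depth field and 8 when adjusted over autosomes alone, but 3 without single-base A or T indels, 5 without indels that have a neighbour within 10 bases, and 127 by a difference of 0.2 with no test. The alternatives that leave indels out test fewer of them. Of the 8, the indels at chr1:87345084, at chr3:88442303 and in ENSMUST00000063704 had a neighbour within 10 bases and were left out there. At 50 reads the indels at chr1:62285271, chr1:87345084 and chr3:88442303 fell below the minimum. The 10 calls there, and the 9 with the record's own depth field, thus include indels outside the 8. With the record's depth field the indels of ENSMUST00000035732 (Fisher exact adjusted p = 0.0712), ENSMUST00000036019 (0.0914) and ENSMUST00000054635 (0.293) lost significance, and at a minimum of 10 reads that of ENSMUST00000063704 did (0.0608), each with its direction kept. No direction reversed.

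At minimums of 10 and 50 reads the Y negative only count was 1632 and 352, the parental only count 1669 and 291, and the genotype differences 147 and 19. Without single-base A or T indels these were 488, 499 and 42. The share of parental only indels in Y positive was 34.8% at 10 reads, and that of Y negative only indels 34.6% at a fraction of 0.25 or more. The median log2 depth ratio was 0 at 50 reads. Of the other values, 31 stayed within 1.5 times the count or within the interval of the main value. With 1 library a genotype, no leave-one-out was possible. No paired analysis was possible because each group held 1 library. Moving shifted starts together left 968 Y negative only and 911 parental only indels. Depth limits single sites: between 20 and 29 reads the SD of the difference was 0.14.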
